A study of Mus musculus with 13 samples.

Results

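A set of 5 genes was examined, 4 receptors of the interleukin-1 (IL-1) family and 1 growth factor, in T cells sorted from mouse melanomas. They were Il1rl1, Il1r2, Il18r1, Il18rap and Areg, taken by symbol from the 12963 genes of the deposited expression table, and all 5 were present and passed the filter on low values. Sorted T cells of subcutaneous B16-F10 tumors, a transplantable melanoma line, were profiled by RNA sequencing in Foxp3-EGFP-DTR mice. These mice express EGFP and a receptor for diphtheria toxin (DTx) wherever Foxp3 is transcribed, so that DTx ablates Foxp3+ regulatory T (Treg) cells and spares cells that do not transcribe the gene. The 13 libraries fell into 5 groups, all of the Foxp3-EGFP-DTR genotype. Treg PBS (n = 3) were Treg cells of mice given PBS. Conventional CD4+ T (Tconv) cells were taken after PBS (CD4 PBS, n = 2, numbered 2 and 3) or after DTx (CD4 DTx, n = 3), and CD8+ Tconv cells likewise after PBS (CD8 PBS, n = 2, numbered 2 and 3) or after DTx (CD8 DTx, n = 3). The PBS-treated controls thus carried the same allele. Age is not given in the labels, and whether each library came from a single mouse or from pooled mice is not given in the sources used here. The question addressed was how Tconv cells of the tumor change when Treg cells are removed. Here it was asked of receptors for IL-33, IL-18 and IL-1, the last a decoy, and of Areg.

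Receptors of the IL-1 family bind a cytokine with one chain, recruit a partner chain, and signal through MyD88 and IRAK kinases to NF-kB. Il1rl1 encodes ST2, the binding chain for the alarmin IL-33, which marks tissue-resident Treg cells and T helper 2 cells. Il1r2 encodes the decoy receptor for IL-1, which binds the cytokine without signaling. Il18r1 and Il18rap encode the binding and the partner chain for IL-18, which acts with IL-12 to drive interferon-gamma in T and NK cells. Areg encodes amphiregulin, a membrane-anchored ligand of the EGF receptor that is shed to act on epithelium and is made by Treg cells in injured tissue.

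The 4 receptor genes lie side by side on chromosome 1, all on the + strand, whereas Areg lies on chromosome 5. RefSeq promoter windows of 300 bases (build GRCm38.p6), each spanning a transcription start, were read for all 5 genes, and 5 windows are printed because they belong to the genes whose levels differed most between groups. The expression table was made on an older build (NCBIM37, mm9), so these coordinates do not apply to it. Capitals mark matches, on either strand, to the letters AGATAA (bound by GATA factors), TGACGTCA (the cyclic AMP response element), TGANTCA (AP-1), TTCNNNGAA (STAT factors) or TGTGGT (RUNX factors). Of 32851 promoter windows of the same length, 11.2% held AGATAA, 1.79% TGACGTCA, 7.81% TGANTCA, 8.30% TTCNNNGAA and 16.8% TGTGGT. The Il1r2 window, chr1:40085843-40086142, held 1 STAT match. RefSeq gave Il1rl1 2 starts, and both windows, chr1:40429320-40429619 and chr1:40439379-40439678, held 1 GATA match, the second with 1 RUNX match as well. The Il18rap window, chr1:40515112-40515411, held 1 RUNX match, and the Areg window, chr5:91139349-91139648, held 1 cyclic AMP response element. No printed window held an AP-1 match, and no marked matches overlapped.
Il1r2: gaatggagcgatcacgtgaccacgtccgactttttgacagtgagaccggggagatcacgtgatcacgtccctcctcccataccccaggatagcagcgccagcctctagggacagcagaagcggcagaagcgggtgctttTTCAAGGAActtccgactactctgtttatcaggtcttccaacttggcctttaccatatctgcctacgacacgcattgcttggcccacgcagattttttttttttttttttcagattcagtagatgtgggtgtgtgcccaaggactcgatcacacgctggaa
Il1rl1, upstream start: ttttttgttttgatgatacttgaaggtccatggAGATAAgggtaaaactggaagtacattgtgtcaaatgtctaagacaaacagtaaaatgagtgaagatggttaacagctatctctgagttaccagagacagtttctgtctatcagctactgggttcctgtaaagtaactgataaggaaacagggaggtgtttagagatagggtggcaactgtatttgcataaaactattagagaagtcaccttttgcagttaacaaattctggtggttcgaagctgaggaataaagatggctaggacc
Il1rl1, downstream start: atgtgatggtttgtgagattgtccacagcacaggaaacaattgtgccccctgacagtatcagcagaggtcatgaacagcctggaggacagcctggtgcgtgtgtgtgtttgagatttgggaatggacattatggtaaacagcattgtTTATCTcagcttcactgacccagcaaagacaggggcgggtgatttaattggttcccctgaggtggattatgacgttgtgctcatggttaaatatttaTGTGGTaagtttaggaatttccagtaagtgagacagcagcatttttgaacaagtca
Il18rap: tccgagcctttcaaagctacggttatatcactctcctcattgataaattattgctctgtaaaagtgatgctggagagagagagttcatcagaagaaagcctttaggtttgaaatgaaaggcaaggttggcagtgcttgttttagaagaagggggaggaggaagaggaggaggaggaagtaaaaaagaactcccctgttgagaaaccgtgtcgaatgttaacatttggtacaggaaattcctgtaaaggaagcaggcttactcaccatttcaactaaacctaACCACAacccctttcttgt
Areg: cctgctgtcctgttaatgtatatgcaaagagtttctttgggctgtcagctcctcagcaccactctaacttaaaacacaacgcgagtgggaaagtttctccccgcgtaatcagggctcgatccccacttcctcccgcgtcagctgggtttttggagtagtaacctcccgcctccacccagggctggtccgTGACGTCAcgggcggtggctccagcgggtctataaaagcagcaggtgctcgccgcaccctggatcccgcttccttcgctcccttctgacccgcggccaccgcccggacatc
Il18r1 had 3 windows, of which 1 held none of these letters, 1 held a RUNX match and 1 held 2 STAT matches. A match is a description of letters and not evidence of binding.

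Values are given as normalized reads, which are read counts divided by 1 size factor per library. The libraries held between 15947556 and 34140486 recovered reads, and the detection floor of 3 reads came to 1.98 to 4.10 normalized reads. This floor covers counting error only. Treg PBS libraries held 1178, 1856 and 1896 normalized reads of Foxp3, CD4 PBS libraries held none, and no other library held more than 12.1, and Cd4 and Cd8a followed the labels except that Cd8a reached 711 and 1302 normalized reads in CD4 DTx libraries 2 and 3 and Cd4 was at 413, 0 and 40.4 in CD8 DTx libraries 1, 2 and 3, against 2.43 and 0 in CD8 PBS. The libraries numbered 3 in all 5 groups held the Y-linked transcript Ddx3y (2598 to 4026 normalized reads) and no Xist, and the others held Xist (942 to 5798) and no Ddx3y, so number and sex were linked. A gene was called different when the limma adjusted p-value (Benjamini-Hochberg over 12667 genes) was under 0.05 and the log2 fold change exceeded 2 in size, a 4-fold threshold. In sorted bulk RNA, fewer cells expressing a gene and less RNA per cell cannot be told apart.

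Il1rl1, the IL-33 receptor, was highest in CD4 Tconv cells after Treg cell ablation. It was at 1886, 5156 and 3487 normalized reads in the 3 CD4 DTx libraries, against 84.7 and 41.6 in CD4 PBS. Treg PBS libraries held 1138, 1470 and 1168. Every CD4 DTx library therefore lay above every Treg library, and both lay far above CD4 PBS. In CD8 cells Il1rl1 was not detected in either PBS library and was at 217, 320 and 353 normalized reads in the 3 CD8 DTx libraries. These came from 235, 332 and 262 recovered reads, well above the floor, and the 5 groups did not overlap for this gene. The order of the group means was CD4 DTx (3510 ± 1635, SD, n = 3), Treg PBS (1259 ± 184, SD, n = 3), CD8 DTx (296 ± 70.7, SD, n = 3), CD4 PBS (63.2 ± 30.5, SD, n = 2) and CD8 PBS (0, n = 2).

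Il1rl1 rose with ablation in both Tconv lineages. The log2 fold change was 5.74 (SE 0.47, limma adjusted p = 6.60e-05) in CD4 cells, a 55.6-fold difference of the means. In CD8 cells the rise was at least 74.1-fold, computed against the floor of the PBS libraries (limma adjusted p = 6.79e-06). CD8 DTx libraries 2 and 3 also held basophil markers, given below, whose part in this rise was not tested. Without ablation, Treg cells exceeded CD4 PBS by 4.37 (SE 0.47, limma adjusted p = 8.25e-05) on the log2 scale and CD8 PBS by at least 315-fold (limma adjusted p = 2.62e-07). The neighbouring top groups, CD4 DTx and Treg PBS, differed by 1.37 (SE 0.42, limma adjusted p = 0.0694), which was not called although the libraries did not overlap. CD8 DTx cells stayed below both, by -2.10 against Treg PBS (SE 0.42, limma adjusted p = 0.00823) and -3.47 against CD4 DTx (SE 0.42, limma adjusted p = 0.00235). The call against Treg PBS fell just short of 4-fold without Treg PBS library 2 (log2 fold change -1.99) or without CD8 DTx library 1 (-1.89). CD8 PBS was at least 15.8-fold below CD4 PBS (limma adjusted p = 2.30e-04), a call lost when the fit was restricted to those 2 groups (limma adjusted p = 0.105). The table gives 1 value per gene, so the membrane and soluble forms of ST2 cannot be told apart.

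**Figure D1:**
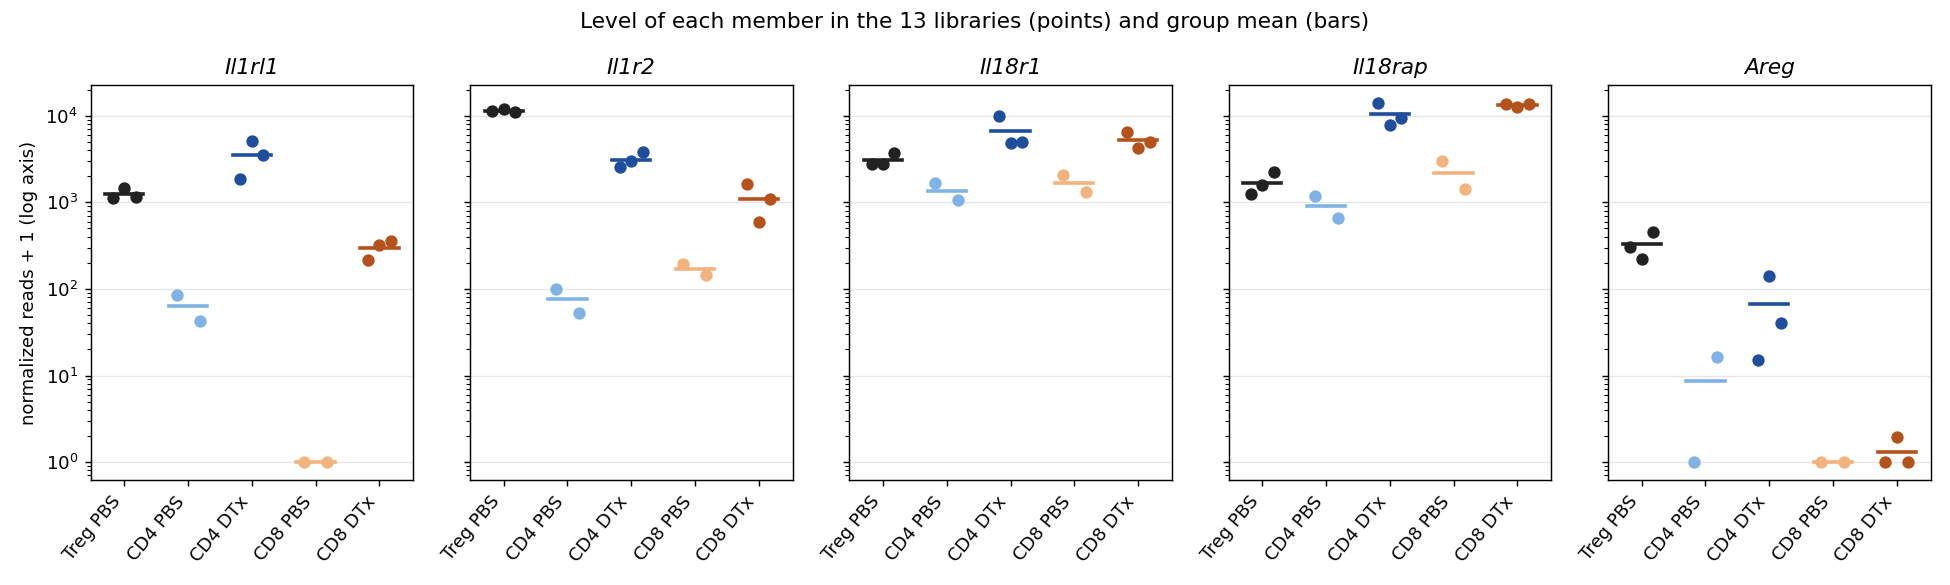
Level of each gene in each library (points) with the group mean (bars), as normalized reads + 1 on a log axis, for the 5 groups. Il1rl1 was highest in CD4 DTx, Il1r2 in Treg PBS, Il18rap in both DTx groups, and Areg was above 200 normalized reads in the Treg PBS libraries alone.

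Il1r2, the IL-1 decoy receptor, was the gene of the 5 with the highest Treg level. The Treg PBS libraries held 11407, 11852 and 10980 normalized reads, and the 2 CD4 PBS libraries 99.8 and 51.5. After ablation it was at 2580, 2987 and 3807 in CD4 DTx. These lay between the other 2 groups and overlapped neither. CD8 PBS libraries were at 194 and 145 normalized reads and CD8 DTx libraries at 1643, 593 and 1088, again without overlap. The means fell in the order Treg PBS (11413 ± 436, SD, n = 3), CD4 DTx (3125 ± 625, SD, n = 3), CD8 DTx (1108 ± 525, SD, n = 3), CD8 PBS (170 ± 34.7, SD, n = 2) and CD4 PBS (75.6 ± 34.1, SD, n = 2).

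Il1r2 was higher in Treg PBS than in CD4 PBS by 7.29 on the log2 scale (SE 0.39, limma adjusted p = 3.01e-06), a 151-fold difference of the means, and higher than in CD8 PBS by 6.08 (SE 0.39, limma adjusted p = 4.24e-06). It rose with ablation by 5.41 (SE 0.39, limma adjusted p = 3.27e-05) in CD4 cells and by 2.59 (SE 0.39, limma adjusted p = 0.00185) in CD8 cells. The CD8 call was lost when the fit was restricted to those 2 groups (limma adjusted p = 0.0722 at the same fold change). The CD4 DTx mean came to 27.4% of the Treg PBS mean. That difference, -1.89 on the log2 scale (SE 0.35, limma adjusted p = 0.00605), passed the adjusted p-value and fell short of 4-fold, and passed both without CD4 DTx library 3 (-2.04, limma adjusted p = 0.0141). The CD8 DTx mean came to 9.71% of the Treg PBS mean, a log2 difference of -3.48 (SE 0.35, limma adjusted p = 8.34e-05). CD8 DTx and CD4 DTx differed by -1.60 (SE 0.35, limma adjusted p = 0.0403), again short of 4-fold, and the lowest pair, CD8 PBS and CD4 PBS, by 1.22 (SE 0.42, limma adjusted p = 0.385).

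Il1r2 also gave the largest difference in the effect of DTx between the lineages among the receptors that were detected in all libraries. The rise in CD4 cells exceeded that in CD8 cells by 2.81 on the log2 scale (SE 0.55), which did not pass the correction over all genes in limma (adjusted p = 0.179) and did in DESeq2 on the recovered reads (2.69, adjusted p = 0.00155). None of the 5 genes was called for this difference in limma, where 0.0474% of all genes tested were called, or 6 genes, with 513 at an unadjusted p under 0.05. Across all genes edgeR called 4 and DESeq2 70. For Il1rl1 the difference was -2.44 (SE 0.67, limma adjusted p = 0.442) and ranged from -5.32 to -0.24 over the alternatives, since its CD8 PBS level was 0. Il18r1 gave 0.60 (SE 0.48), Il18rap 0.83 (SE 0.52) and Areg 3.14 (SE 1.76), all with a limma adjusted p of 1.

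Il1rl1 and Il1r2, receptors for different cytokines, stood in a lower ratio in Treg cells than in CD4 Tconv cells, both with PBS and after DTx. The ratio of Il1rl1 to Il1r2 reads within a library is independent of library scaling, and its change between groups does not depend on gene length. It was 0.0998, 0.124 and 0.106 in Treg PBS and 0.731, 1.73 and 0.916 in CD4 DTx. It was 0.849 and 0.808 in CD4 PBS, at a far lower level of both genes. In CD8 DTx the ratio was 0.132, 0.539 and 0.324. Treg PBS libraries had the lowest ratio of all groups in which Il1rl1 was detected. On the log2 scale the ratio was higher in CD4 DTx than in Treg PBS by 3.26 and in CD8 DTx by 1.38, and in both cases the libraries did not overlap (two-sided exact permutation p = 0.1, the smallest possible with 3 against 3).

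**Figure D2:**
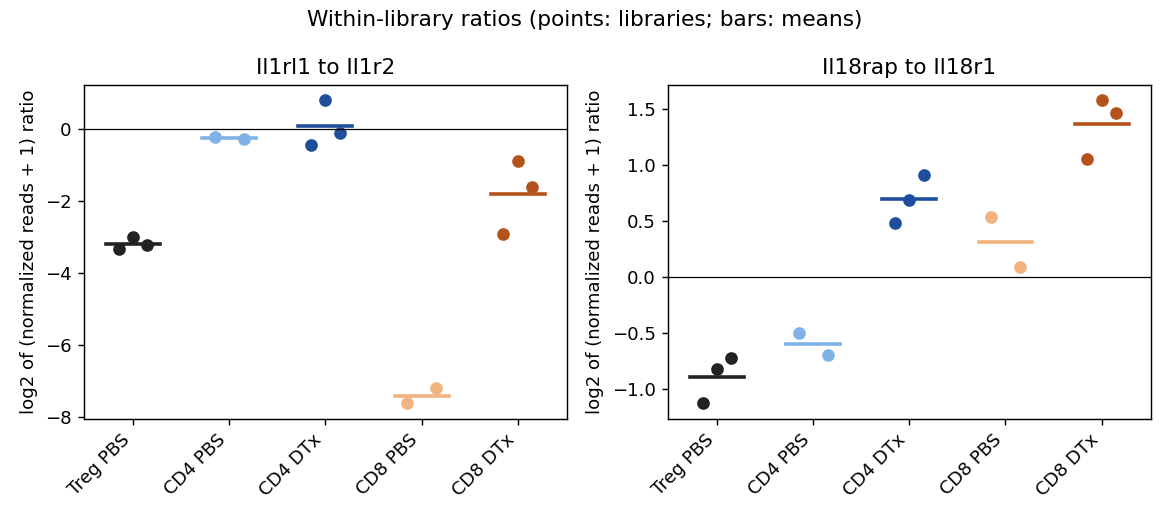
Ratios of 2 genes within each library on a log2 scale, with 1 added to each level, by group (points, libraries; bars, means). The Il1rl1 to Il1r2 ratio was lower in the 3 Treg PBS libraries than in the 3 CD4 DTx libraries, and the CD8 PBS points lie low because Il1rl1 was 0 there; the Il18rap to Il18r1 ratio was above 0 in the DTx and CD8 groups.

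Il18r1, the binding chain for IL-18, was present in all groups and varied least among the 5 genes. It was at 10089, 4909 and 4987 normalized reads in CD4 DTx and at 1660 and 1063 in CD4 PBS. In CD8 DTx it was at 6520, 4250 and 4987 and in CD8 PBS at 2063 and 1330. The DTx libraries lay above the PBS libraries in both lineages, and CD4 DTx library 1 stood above the other CD4 DTx libraries. Treg PBS libraries were at 2750, 2780 and 3692 normalized reads, between the PBS and the DTx Tconv groups. The means were 6662 ± 2968 in CD4 DTx, 5252 ± 1158 in CD8 DTx, 3074 ± 535 in Treg PBS (each SD, n = 3), 1697 ± 518 in CD8 PBS and 1362 ± 422 in CD4 PBS (each SD, n = 2).

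Il18r1 rose with ablation in CD4 cells by 2.24 on the log2 scale (SE 0.34, limma adjusted p = 0.00112). This call rested on CD4 DTx library 1, without which the difference was 1.90 (limma adjusted p = 0.00214), and on CD4 PBS library 3, without which it was 1.92 (limma adjusted p = 0.0250), both just under 4-fold. In CD8 cells the difference was 1.64 (SE 0.34, limma adjusted p = 0.0102), which passed the adjusted p-value and not the fold threshold. Treg PBS differed from CD4 PBS by 1.20 (SE 0.34, limma adjusted p = 0.0278) and from CD8 PBS by 0.88 (SE 0.34, limma adjusted p = 0.0942). Neighbouring levels were not resolved, since CD4 DTx differed from Treg PBS by 1.04 (limma adjusted p = 0.0579), CD8 DTx from Treg PBS by 0.76 (limma adjusted p = 0.180), CD8 DTx from CD4 DTx by -0.28 (limma adjusted p = 0.858) and CD8 PBS from CD4 PBS by 0.32 (limma adjusted p = 1), the last pairs with overlapping libraries.

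Il18rap, the partner chain that IL-18 signaling requires, was highest in Tconv cells of ablated tumors and not in Treg cells. The CD8 DTx libraries held 13556, 12693 and 13783 normalized reads and the CD8 PBS libraries 2998 and 1414. CD4 cells had 14125, 7899 and 9363 after DTx and 1178 and 656 after PBS. All 6 DTx libraries lay above all 7 libraries from PBS-treated mice. Treg PBS libraries were at 1260, 1576 and 2239 normalized reads and overlapped CD8 PBS. The order of the means was CD8 DTx (13344 ± 575, SD, n = 3), CD4 DTx (10463 ± 3255, SD, n = 3), CD8 PBS (2206 ± 1120, SD, n = 2), Treg PBS (1692 ± 500, SD, n = 3) and CD4 PBS (917 ± 369, SD, n = 2).

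Il18rap rose with ablation by 3.53 (SE 0.37, limma adjusted p = 1.52e-04) in CD4 cells, 11.4-fold by the means, and by 2.69 (SE 0.37, limma adjusted p = 0.00118) in CD8 cells, 6.05-fold by the means. Both DTx groups were above Treg PBS, CD4 DTx by 2.62 (SE 0.33, limma adjusted p = 6.49e-04) and CD8 DTx by 3.02 (SE 0.33, limma adjusted p = 1.41e-04). The 2 DTx groups overlapped and differed by 0.39 (SE 0.33, limma adjusted p = 0.792). Treg PBS differed from CD4 PBS by 0.90 (SE 0.37, limma adjusted p = 0.102) and from CD8 PBS by -0.32 (SE 0.37, limma adjusted p = 0.564), neither called, and the sign of the latter turned without CD8 PBS library 2 (0.22). CD8 PBS and CD4 PBS differed by 1.23 (SE 0.40, limma adjusted p = 0.317).

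Within a library, Il18rap stood higher relative to Il18r1 after ablation. This ratio was chosen after the levels were seen and was not tested. It ranged from 1.40 to 1.88 in CD4 DTx against 0.617 to 0.709 in CD4 PBS, and from 2.08 to 2.99 in CD8 DTx against 1.06 to 1.45 in CD8 PBS. In Treg PBS it was lowest, at 0.458 to 0.607. The groups of each pair did not overlap.

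Areg, amphiregulin, was largely a Treg transcript. The Treg PBS libraries held 301, 221 and 460 normalized reads. In CD4 PBS it was at 0 and 15.2, and in CD4 DTx at 14.0, 142 and 39.5. CD4 DTx libraries overlapped CD4 PBS and lay below all Treg libraries. In CD8 cells Areg was at 0 in both PBS libraries and in CD8 DTx libraries 1 and 3, and CD8 DTx library 2 held 1 recovered read. The CD8 groups were thus at or under the floor, and no fold is given between them. The means were 327 ± 122 in Treg PBS (SD, n = 3), 65.2 ± 67.8 in CD4 DTx (SD, n = 3) and 7.60 ± 10.7 in CD4 PBS (SD, n = 2).

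Areg was higher in Treg PBS than in CD4 PBS by 6.28 (SE 1.24, limma adjusted p = 0.00397), a call lost without CD4 PBS library 2 (4.28, limma adjusted p = 0.0606), and higher than in CD8 PBS by at least 81.8-fold (limma adjusted p = 7.98e-04). With ablation the CD4 difference was 3.46 (SE 1.24, limma adjusted p = 0.0940), which was not called. It was called without CD4 PBS library 3 (5.47, limma adjusted p = 0.0367) and under no other of 16 alternatives. CD4 DTx differed from Treg PBS by -2.82 (SE 1.11, limma adjusted p = 0.157). CD8 DTx was at least 81.1-fold below Treg PBS (limma adjusted p = 7.86e-04) and at least 16.2-fold below CD4 DTx (limma adjusted p = 0.0396). The latter call was kept in 9 of 18 alternatives and was lost when any of 5 of the 6 DTx libraries was left out, with adjusted p-values from 0.0720 (without CD8 DTx library 3) to 0.164 (without CD4 DTx library 2).

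**Figure D3:**
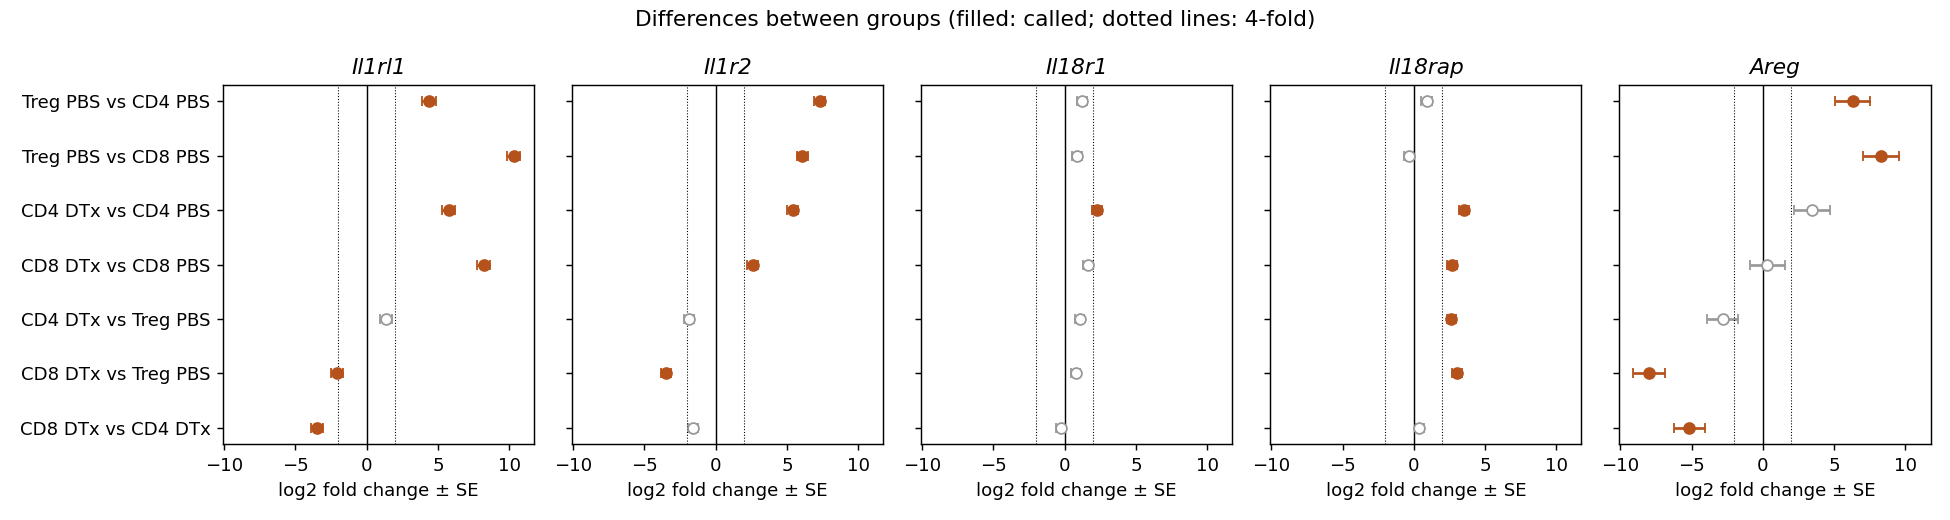
Log2 fold change (points) with its standard error (bars) for each gene in 7 comparisons, on the log2(normalized reads + 1) scale, where filled points were called and dotted lines mark 4-fold. Il18rap was called in the 2 ablation contrasts and in both DTx groups against Treg PBS, Areg in no ablation contrast, and fold changes against groups at 0 depend on the added 1.

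Counted by comparison, 4 of the 5 genes rose in CD4 Tconv cells after ablation and none fell. Of all genes tested in CD4 DTx against CD4 PBS, 6.85% were called, 5.06% higher and 1.79% lower. The same 4 genes had groups that did not overlap, as did 46.3% of all genes. The median log2 fold change of the 5 genes was 3.53, and that of all genes tested was -0.04. In CD8 cells 3 of 5 rose and none fell, where 5.46% of all genes were called, 3.87% higher and 1.59% lower. In that comparison 4 of 5 did not overlap, as did 43.6% of all genes. The CD8 median was 2.59, the value of Il1r2, against -0.03 over all genes, and it is unchanged with Il1rl1 at its bound. Since the 5 genes were chosen with earlier results of these data known, counts above the all-gene shares are a description and not a test.

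Treg cells of PBS-treated mice exceeded CD4 PBS in 3 of 5 genes, Il1rl1, Il1r2 and Areg, with 10.2% of all genes called and 7.85% called higher. The groups did not overlap for any of the 5, as did 56.7% of all genes. The same 3 genes exceeded CD8 PBS, with 9.41% called and 6.56% higher, and 4 of 5 did not overlap against 58% of all genes. CD4 DTx against Treg PBS called Il18rap alone, higher, with 4.01% of all genes called and 1.56% called higher, and all 5 did not overlap, as did 25.4% of all genes. CD8 DTx against Treg PBS called Il18rap higher and Il1rl1, Il1r2 and Areg lower, with 4.93% called, 2.14% higher and 2.79% lower, and all 5 did not overlap against 22.6%. These contrasts share the PBS groups or Treg PBS as controls, so they are not independent of each other. Between lineages Il1rl1 alone was called in the PBS groups, lower in CD8 cells, with 0.908% called and 0.166% called lower, where 3 of 5 did not overlap against 42.4% of all genes. Il1rl1 and Areg were called lower in CD8 DTx than in CD4 DTx, with 1% called and 0.426% called lower, where 3 of 5 did not overlap against 13.9%. Under TMM scaling, which moved the median of all genes by no more than 0.04 on the log2 scale in any contrast, no direction changed.

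The rises were seen in libraries of both sexes. Each PBS Tconv group held 1 library of each sex, so the spread within a sex could not be measured there. Within the libraries numbered 2 and, separately, within those numbered 3, Il1rl1, Il1r2, Il18r1 and Il18rap were each higher in the DTx library than in the PBS library of the same lineage. With libraries numbered 1 and 2 alone, a choice made after seeing the data, the PBS Tconv groups held 1 library each. Of the CD4 calls, 3 were kept and that of Il18r1 was lost (2.08, limma adjusted p = 0.104). None of the CD8 calls was kept at this size, with log2 fold changes of 8.05 for Il1rl1 (limma adjusted p = 0.0755), 2.34 for Il1r2 (limma adjusted p = 0.133) and 2.13 for Il18rap (limma adjusted p = 0.0871).

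Levels can be compared between genes only per length. With the bases covered by GENCODE M21 exons as the length, 6.89 kb for Il1rl1, 1.91 kb for Il1r2, 4.82 kb for Il18r1, 6.75 kb for Il18rap and 1.22 kb for Areg, none shared exons with another gene. In Treg PBS the mean level was 5982 normalized reads per kb for Il1r2, 638 for Il18r1, 269 for Areg, 251 for Il18rap and 183 for Il1rl1. In CD4 DTx it was 1638 for Il1r2, 1550 for Il18rap, 1383 for Il18r1, 509 for Il1rl1 and 53.7 for Areg. Il1r2 thus led in both, and by less in CD4 DTx. In CD8 DTx Il18rap led at 1976 normalized reads per kb, with Il18r1 at 1090, Il1r2 at 581 and Il1rl1 at 43.0. Annotated exons need not be those used in these cells.

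The receptor genes form 1 run on chromosome 1, in the RefSeq order Map4k4, Il1r2, Il1r1, Il1rl2, Il1rl1, Il18r1, Il18rap, and then the neighbours Slc9a4, Slc9a2, Mfsd9 and Tmem182, of which 3 were not analysed here. Of the 8 genes tested, 5 were called higher in CD4 cells with ablation, where 5.06% of all genes were. They were the 4 receptors above, already counted, and Il1r1, the signaling receptor for IL-1. Il1r1 went from 35.5 and 0.661 normalized reads in CD4 PBS to 256, 431 and 316 in CD4 DTx (log2 fold change 5.40, SE 1.58, limma adjusted p = 0.0423). The value of 0.661, in CD4 PBS library 3, was under the floor of that library, 1.98, so this fold change depends on the added 1. In CD8 cells Il1r1 was at 152 and 60.0 in PBS and at 6.47, 4.82 and 22.9 after DTx, not called. Il1rl2, the IL-36 receptor, was at 44.9, 26.0 and 0 normalized reads in Treg PBS against 327 and 355 in CD4 PBS (log2 fold change -4.99, SE 1.22, limma adjusted p = 0.0128) and was not called with ablation. The flanking genes Map4k4 and Mfsd9 were called in none of the 3 contrasts plotted. In Treg PBS against CD4 PBS, where Il1rl2 was called lower, its neighbour Il1r1 was not called (0.48, SE 1.58, limma adjusted p = 0.859). Il1rl1, the neighbour of Il1rl2 on the other side, was called higher there (4.37, SE 0.47, limma adjusted p = 8.25e-05).

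**Figure D4:**
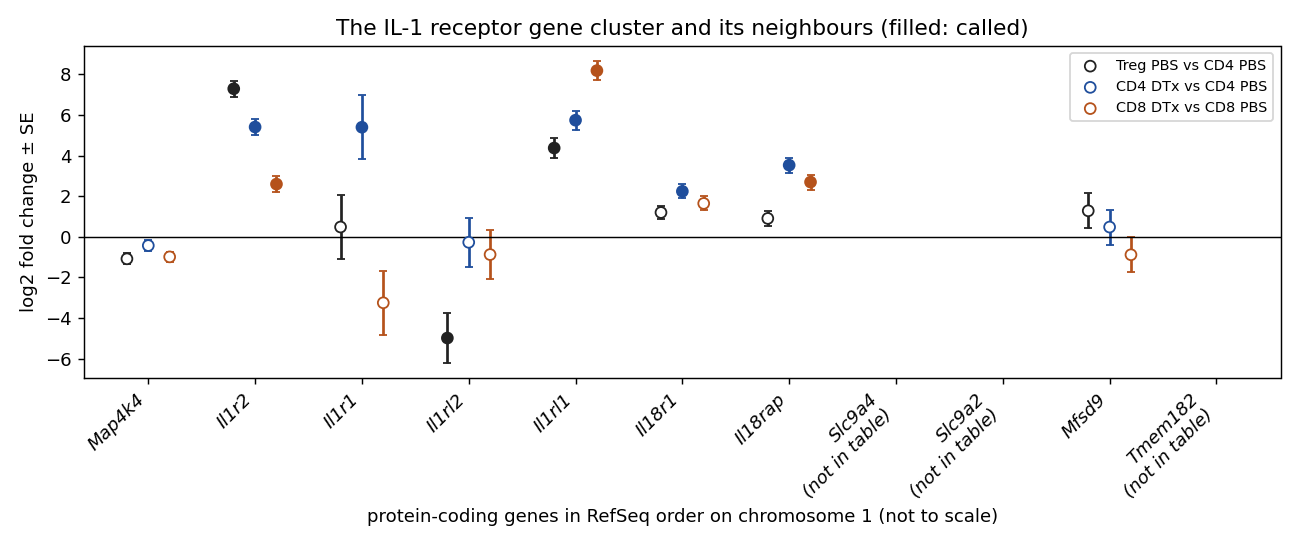
Log2 fold change with its standard error for the genes of the receptor cluster and its neighbours in their order along chromosome 1 (not to scale), in 3 comparisons, where filled points were called. The 5 called genes in CD4 DTx against CD4 PBS run from Il1r2 to Il18rap, with Il1rl2 near 0 among them, and Map4k4 and Mfsd9 on the flanks were not called.

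The other listed genes of the IL-1 pathways follow by role. Among the other IL-1 family receptors in the table, Il1rap, the shared partner chain of ST2 and the IL-1 receptor, was at 465 to 579 normalized reads in CD4 DTx and at 529 and 575 in CD4 PBS (log2 fold change -0.07, SE 0.27, limma adjusted p = 0.905). Of 22 adaptors, kinases and NF-kB genes, 1 rose in CD4 cells, Nfkb1, the NF-kB p105 precursor, from 1147 and 1462 to 5589, 6357 and 4243 normalized reads (2.04, SE 0.26, limma adjusted p = 3.48e-04), a share near the 5.06% of all genes called higher. None of the 22 was called in CD8 cells with ablation, and their medians were -0.41 in CD4 and -0.35 in CD8. Myd88, the shared adaptor, was detected at 2642 to 4997 normalized reads in all libraries. Of the antagonists, Il18bp, which neutralizes IL-18, rose in CD4 cells from 73.8 and 79.3 to 534, 407 and 286 normalized reads (2.36, SE 0.45, limma adjusted p = 0.00466) and differed by 0.48 in CD8 cells (limma adjusted p = 0.517). The table held 3 of 8 ligands of the family, Il1b, Il18 and Il1f9, none of which was called with ablation in either lineage, and the gene for IL-33 was not analysed here. Il18 was higher in Treg PBS, at 60.1, 33.6 and 37.7 normalized reads, than in CD8 PBS, where it was 0.

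Around Areg, the other genes of the EGF family were read likewise. Tgfa, another ligand of the EGF receptor, was at 125, 96.4 and 64.7 normalized reads in Treg PBS against 1.37 and 0 in CD4 PBS (log2 fold change 5.92, SE 1.58, limma adjusted p = 0.0200). Btc, betacellulin, was at 36.9 and 29.1 normalized reads in CD4 PBS and at 0 in all CD4 DTx libraries, and was called lower (limma adjusted p = 0.0325). Of the genes for shedding of EGF ligands, Rhbdf1, a regulator of the protease ADAM17, was called higher in Treg PBS than in CD4 PBS, at 37.3, 14.1 and 47.1 normalized reads against 0 in both (limma adjusted p = 0.0146), and none of the 4 genes was called with ablation. Of the EGF receptor family Erbb2 and Erbb3 were tested and neither was called in any contrast.

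Several genes known from ST2-positive tissue Treg cells rose beside Il1rl1. Of 10 listed genes, 7 were higher in Treg PBS than in CD4 PBS, 6 rose in CD4 cells with ablation and 3 in CD8 cells, and none fell in these contrasts, where 7.85%, 5.06% and 3.87% of all genes were called higher. The medians were 3.74, 2.39 and 1.94, against all-gene medians of 0.01, -0.04 and -0.03. This list was chosen with earlier results of these data known, so its counts and medians are a description and not a test. Gata3, a transcription factor that activates Il1rl1 in T helper 2 cells, rose in CD4 cells from 1880 and 2695 to 5310, 14503 and 10531 normalized reads (2.05, SE 0.41, limma adjusted p = 0.00621). CD4 DTx library 2 had the most Gata3, the most Il1rl1 and the most Areg of its group. Of the other listed genes, Rora and Ikzf2 were lowest in that library and the rest highest. Pparg, a nuclear receptor of tissue Treg cells, rose in CD4 cells from 32.8 and 5.94 to 268, 826 and 334 (4.78, SE 1.08, limma adjusted p = 0.0120), a level that did not differ by test from that of Treg PBS (0.09, SE 0.97, limma adjusted p = 0.980). In that comparison of CD4 DTx with Treg PBS none of the 10 genes was called higher and 4 were called lower, Klrg1 (-3.29), Ikzf2 (-3.53), Il10 (-5.66) and Ccr8 (-2.04), where 2.45% of all genes were called lower. Klrg1, an inhibitory receptor, rose by 3.35 (SE 0.61, limma adjusted p = 0.00349) in CD4 cells and by 4.60 (SE 0.61, limma adjusted p = 0.00114) in CD8 cells. Batf and Irf4 were not called in either lineage.

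Several genes linked to IL-12 and IL-18 rose in both lineages beside Il18rap. Of 6 genes, Tbx21, Il12rb1, Il12rb2 and Ifng were called higher in CD4 and in CD8 cells with ablation, and Stat4 and Eomes in neither, where 5.06% and 3.87% of all genes were called higher. The medians were 2.65 in CD4 and 2.29 in CD8, against -0.04 and -0.03 over all genes. Like the list before, this one was chosen with earlier results known, and its counts are a description. Il12rb2, the signaling chain of the IL-12 receptor, rose by 3.60 in CD4 cells (SE 0.55, limma adjusted p = 0.00111), to 8049, 2646 and 4135 normalized reads from 527 and 255. In CD8 cells it rose by 4.05 (SE 0.55, limma adjusted p = 0.00118). CD4 DTx library 1 had the most Il12rb2, the most Il18r1 and the most Il18rap of its group. It also had the most Stat4 and Ifng, but the least Tbx21, Il12rb1 and Eomes. Ifng, interferon-gamma, rose by 2.06 in CD4 cells (SE 0.56, limma adjusted p = 0.0307) and by 2.62 in CD8 cells (SE 0.56, limma adjusted p = 0.0116).

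**Figure D5:**
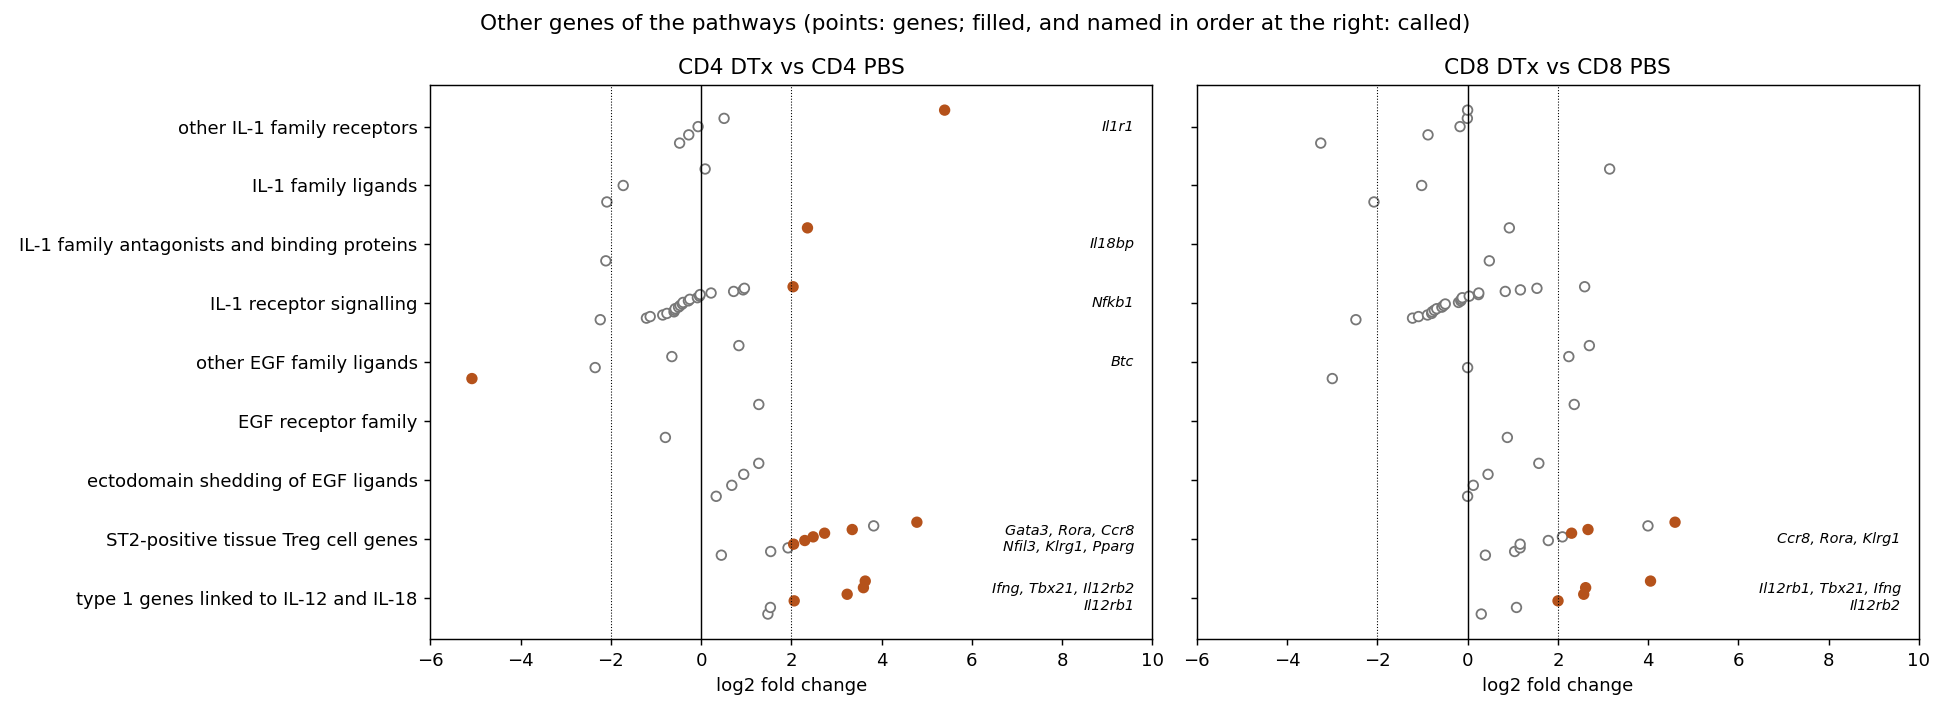
Log2 fold change of each tested gene of 9 lists (points) in CD4 DTx against CD4 PBS and in CD8 DTx against CD8 PBS, with the called genes filled and named at the right in order of fold change and dotted lines at 4-fold. Calls lie mainly in the lists of ST2-positive tissue Treg cell genes (6 of 10 in CD4 cells) and type 1 genes (4 of 6 in both). The lists were chosen with earlier results of these data known.

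Markers of other cells that use these receptors moved with some of the groups. Mast cells and basophils express Il1rl1, and 9 of their 11 listed markers were in the table. Their summed level was 210 to 12195 normalized reads in CD8 DTx and 159 to 581 in CD8 PBS, and Mcpt8, a basophil protease, was at 8.31, 7313 and 828 in CD8 DTx libraries 1, 2 and 3. Il1rl1 was at 217 in the first of these. That library held Kit at 119, Hdc at 42.5, Cma1 at 19.4, Cpa3 at 16.6 and Ms4a2 at 3.70. Gata2, Fcer1a and Tpsab1 were 0 there, and Cd4 was at 413. The part of mast cells, basophils or Cd4-expressing cells in its Il1rl1 level was not tested. CD8 DTx library 2, with Il1rl1 at 320, held Hdc at 2472, Cpa3 at 772, Fcer1a at 760 and Gata2 at 323. It also held Ms4a2 at 242, Cma1 at 195 and Kit at 118, with Tpsab1 at 0. Their part in the Il1rl1 level of library 2 was not tested either. Leaving out both CD8 libraries numbered 2 was a choice made after seeing the data. The Il18r1 log2 fold change in CD8 DTx against CD8 PBS was then 2.10, in place of 1.64. That of Il1rl1 ranged from 5.88 to 11.2 over 17 alternatives, this setting among them, and depends on the added 1. CD8 PBS held 1 library in that setting, which is assumed to vary like the other groups. CD8 DTx library 3 was kept and held Mcpt8 at 828, Hdc at 682, Ms4a2 at 147, Gata2 at 144 and Fcer1a at 128. The setting therefore cannot tell what part basophils have in these levels. In CD4 cells the sum was 781 to 1390 after DTx against 53.3 and 58.1 in PBS, most of it Hdc (938, 1370 and 541), with Kit next in library 3 (108), while Mcpt8 was at 0, 0 and 76.4 and Tpsab1, Cma1 and Gata2 were 0 in all 3 libraries. The part of Hdc-expressing cells in the Il1rl1 rise was not tested.

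Neutrophils express Il1r2, and 9 of their 10 markers were in the table. Their sum was 15.3 to 94.2 normalized reads in Treg PBS, 11.2 to 112 in CD4 DTx and 49.5 to 68.3 in CD4 PBS. It was 41.3 to 134 in CD8 PBS and 58.2 to 668 in CD8 DTx. Elane, a neutrophil protease, was 0 in all 13 libraries, and Camp was above 0 in CD8 DTx library 1 alone, at 4.62. In CD8 DTx library 2, S100a9 was at 186, S100a8 at 172, Cxcr2 at 156 and Retnlg at 99.2. Within CD8 DTx the sum was highest in library 2, which had the least Il1r2. NK cells express both IL-18 receptor chains, and all 6 markers summed to 2175 and 5841 in CD8 PBS and 3445 to 10901 in CD8 DTx, with the highest value of each group in library 2. Il18rap was the highest of CD8 PBS and the lowest of CD8 DTx in those libraries. In CD4 cells the NK sum was 161 and 321 in PBS and 418 to 757 after DTx, where Klra8 and Klra4 were 0. Klre1 was called higher there, at 92.6, 63.4 and 72.4 after DTx against 0 and 5.28 in PBS. Melanocyte markers, 5 of 7 in the table, had sums of 782 to 1229 (Treg PBS), 435 and 498 (CD4 PBS), 89.0 to 185 (CD4 DTx), 171 and 629 (CD8 PBS) and 64.5 to 127 (CD8 DTx). Macrophage and dendritic markers, all 11 in the table, had sums of 1487 to 4274 in Treg PBS, against 1354 and 1513 (CD4 PBS) and 729 to 2271 (CD4 DTx). B cell markers, 5 of 6, summed to 236 to 1767 over all libraries, erythroid markers, all 6, to 0 to 11511, with the highest values in PBS groups, and stromal and endothelial markers, 2 of 6, to 944 to 7291. Their part in the results was not tested.

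Finally, the genes whose levels followed each of the 5 most closely over the 13 libraries were listed, as a description of libraries that fall into 5 groups and share their scaling. Il1rl1 was followed most closely by Map6 (Pearson r = 0.985, Spearman rho = 0.961), Mmp9 (r = 0.971) and Vill (r = 0.953). Il1r2 was followed by Cav2 (r = 0.979), Fam132a (r = 0.976) and Unc119 (r = 0.973). The IL-18 receptor chains had other companions, Gramd1b (r = 0.954), Id2 (r = 0.948) and Apobr (r = 0.947) for Il18r1 and Ifitm1 (r = 0.967), Cxcr6 (r = 0.960) and Nek6 (r = 0.960) for Il18rap. Areg was followed by Pdzk1ip1 (r = 0.951), Smim10l2a (r = 0.950) and A830012C17Rik (r = 0.940). Among the 5 genes the closest pair was Il18r1 and Il18rap (r = 0.886, rho = 0.907), followed by Il1rl1 and Il1r2 (r = 0.761, rho = 0.779), and Areg and Il18rap had the lowest value (r = -0.23, rho = -0.23).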

How the data were processed

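RNA was sequenced from 13 libraries of tumor-infiltrating T cells in 5 groups, assigned by the cell type and treatment in the labels. According to the sources used here, the authors prepared full-length cDNA libraries (the labels name SmartSeq2 and the study's methods a SMARTer low-input kit), trimmed adaptors with cutadapt, aligned reads with hisat2 to NCBIM37 (mm9), kept uniquely mapped reads and normalized to library size; FastQC and DESeq2 are also named in the submitters' processing notes, and the read counter and strand setting are not given in the sources used here. The authors deposited 1 table of normalized signal per gene and library, called FPM. Within each library all values were whole multiples of 1 step (tolerance 0.01 of a read), so whole reads were recovered, at 0.661 to 1.37 normalized reads each. All columns were matched by title, and 0 columns were left unused. Of 12963 rows, 1 symbol was duplicated and 53 genes were 0 throughout.

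The 12667 genes reaching 10 normalized reads in 2 or more libraries were tested with limma 3.58.1 (lmFit, contrasts.fit, eBayes with trend) in R 4.3.3 on log2(value + 1), with 1 mean per group over all 13 libraries and no covariates, which shares the spread between groups of 2 and 3. Calls needed a Benjamini-Hochberg adjusted p-value under 0.05 and a log2 fold change above 2 in size. The test chosen for FPM was kept when the values proved to be scaled reads, whereas the study used DESeq2. As alternatives edgeR 4.0.16 (quasi-likelihood) and DESeq2 1.42.0 were run on the recovered reads and called 712 and 1041 genes in CD4 DTx against CD4 PBS, where limma called 868. The added 1 shrinks changes of low genes, and a difference of mean log values need not equal the log of the ratio of means, which it exceeds for Areg in Treg PBS and in CD4 DTx against CD4 PBS. Where a group was at or under 3 reads per library the fold was computed from that floor. No libraries of a group were duplicates (chi-square of 43.5 to 244 per degree of freedom between them). Whether libraries of a group came from separate mice is not stated in the labels. The study calls the replicates of these groups biological and isolated on independent days. Which library came from which day is not given. The p-values thus measure the spread between these libraries, with any spread between days. The labels name no molecular identifiers. Same-numbered libraries deviated together in CD8 DTx and CD4 DTx (r = 0.36, 0.21 and 0.59 for numbers 1, 2 and 3) and were taken as paired there from the data. The main fit held no block, so the p-values given for that contrast ignore this pairing. A replicate block was run as an alternative. In the other contrasts the libraries were not taken as paired. With 2 libraries in each PBS Tconv group, such correlations say little about pairing, and number was linked to sex in all groups. Genes named were the 5 genes, listed pathway and marker genes, and for each of the 5 the 3 genes with the highest Pearson r. The 5 genes and the lists were chosen with earlier results of these data known. The ratio was tested by exact permutation in SciPy 1.17.1. The fitting scripts were tested on simulated data. Promoter sequences were taken from RefSeq and exon lengths from GENCODE M21.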

Additional observations from a re-analysis of the deposited data

How the results depend on the processing

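Over 25 alternatives, 746 of 785 values of the 5 genes kept their direction and their side of the call, 26 lost a call, 9 gained one and 4 changed sign, all 4 without a call: Il18rap in Treg PBS against CD8 PBS (0.22 without CD8 PBS replicate 2, also with both CD8 libraries numbered 2 left out; -0.87 to 0.22 over single libraries left out), Il18r1 in CD8 PBS against CD4 PBS (-0.0033 without CD4 PBS replicate 3; up to 0.64) and Il18r1 in CD8 DTx against CD4 DTx (0.063 without CD4 DTx replicate 1; down to -0.46). With the adjusted p-value alone, 2581 genes were called in Treg PBS against CD4 PBS, 2367 in Treg PBS against CD8 PBS, 1612 in CD4 DTx against CD4 PBS, 1377 in CD8 DTx against CD8 PBS, 1002 in CD4 DTx against Treg PBS, 1089 in CD8 DTx against Treg PBS and 208 in CD8 DTx against CD4 DTx, in place of 1292, 1192, 868, 692, 508, 624 and 127, and 2 of the 5 genes in CD4 DTx against Treg PBS, as with a pseudocount of 5. Chosen after seeing the data, libraries numbered 1 and 2 alone gave 775, 365, 409, 0, 62, 134 and 0 genes in the same order, 0 in CD8 PBS against CD4 PBS and 0 for the difference between lineages, and of the 5 genes 0 in CD8 DTx against CD8 PBS, CD8 PBS against CD4 PBS and CD8 DTx against CD4 DTx and 1 in CD8 DTx against Treg PBS; this setting leaves fewer libraries, and a PBS group of 1 library is assumed to vary like the others. Leaving out both CD8 libraries numbered 2, also chosen after seeing the data and also with 1 CD8 PBS library, gave 38 genes in CD8 PBS against CD4 PBS (115 otherwise), 72 genes and 1 of the 5 in CD8 DTx against CD4 DTx, and 2 genes for the difference between lineages (6 otherwise). Fits over the groups compared alone called 201 genes in CD8 DTx against CD8 PBS, 34 genes and 0 of the 5 in CD8 PBS against CD4 PBS, and 59 genes and 1 of the 5 in CD8 DTx against CD4 DTx. On recovered reads edgeR called 323 genes in CD4 DTx against Treg PBS and 76 genes with 1 of the 5 in CD8 DTx against CD4 DTx, and DESeq2 called 230 in CD8 PBS against CD4 PBS, 233 in CD8 DTx against CD4 DTx and 70, Il1r2 being 1 of them, for the difference between lineages, which called 1 gene with a pseudocount of 5 and 10 without the filter. The causes were not tested. With 1 library left out at a time, the genes called ranged from 838 to 1333 in Treg PBS against CD4 PBS, 542 to 1148 in Treg PBS against CD8 PBS, 496 to 837 in CD4 DTx against CD4 PBS, 149 to 994 in CD8 DTx against CD8 PBS, 335 to 461 in CD4 DTx against Treg PBS, 445 to 542 in CD8 DTx against Treg PBS, 59 to 112 in CD8 PBS against CD4 PBS, 51 to 128 in CD8 DTx against CD4 DTx and 0 to 14 for the difference between lineages, and of the 5 genes 2 to 3, 3 to 3, 3 to 4, 3 to 3, 1 to 2, 3 to 4, 1 to 1, 1 to 2 and 0 to 0 were called in the same order. The Il1rl1 to Il1r2 log2 ratio of CD4 DTx over Treg PBS ranged from 2.90 to 3.52, and that of CD8 DTx over Treg PBS from 0.92 to 1.93. With the replicate block, 179 genes were called in the paired contrast of CD8 DTx with CD4 DTx, 878 in CD4 DTx against CD4 PBS and 756 in CD8 DTx against CD8 PBS, and the block changed no call of the 5 genes. Areg rests on few reads in every group but Treg PBS, and with 2 libraries in each PBS Tconv group a single library can decide a call.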
